A study of Homo sapiens with 46 samples.

Results

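Retained introns are introns that stay in a spliced transcript, and they were 6147 of the 298384 splicing events that the series tabulated. Every event whose identifier carries the retained-intron class was taken, from each of the 4 splicing tables of the series. The 6147 events stand for 6142 introns in 3286 genes by symbol, and 4338 of them appear in all 4 tables. The measure is the percent spliced in (PSI), given as a fraction from 0 to 1. For an intron it is the share of informative reads that carry the intron, so a PSI of 1 means that no counted read joined its flanking exons.

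RNA was sequenced from 46 libraries in 14 groups. ASO-1570, a splice-switching antisense oligonucleotide for TRA2B, was set against ASO-CTL, the control oligonucleotide. Both were used at 50 nM and, in a separate experiment, at 200 nM to U87MG, a glioblastoma cell line, and to MDA-MB-231 (written MDA-MB231 in the labels), a breast cancer cell line. An siRNA against TRA2B was set against a control siRNA at 10 nM in both lines. Cells were lipofected and collected after 48 hours, and each cell line group has 3 libraries. A patient-derived xenograft of breast cancer, all from 1 tumour line, received ASO-1570 or ASO-CTL at 50 mg/kg by injection into the tumour, 3 times a week for 4 weeks, with 5 tumours per group. The labels call the host mice immunocompetent, and how mouse reads were handled is not given in the sources used here. In the 50 nM and siRNA experiments the cell type field of the MDA-MB-231 libraries reads glioblastoma, against their names and cell line field. In these libraries 6 epithelial markers, KRT8 and KRT18 among them, summed to 1370 to 1750 CPM (gene counts scaled to the library total), against 4.82 to 10.5 CPM over all U87MG libraries, and they are described as MDA-MB-231. Glial markers were near absent in U87MG: 6 of these, GFAP and OLIG2 among them, summed to 2.62 to 3.15 CPM with ASO-1570 and 3.26 to 3.48 CPM with ASO-CTL at 200 nM.

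Most human introns are removed by the major spliceosome, which recognises a GT at the start of the intron, a branch point and an AG at its end. A small class is removed by the minor spliceosome, which holds the U11, U12, U4atac and U6atac RNAs. Introns of this class have a longer and more constant start and are known to be spliced slowly. A transcript that keeps an intron is often held in the nucleus or, where the intron brings a stop codon into frame, degraded by nonsense-mediated decay. SR proteins such as TRA2B bind purine-rich exonic sequence and recruit the splicing machinery, and several SR protein genes and the CLK kinases that phosphorylate them use retained introns to set their own output.

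The introns on which the results below turn are shown in sequence, from GENCODE release 29 transcripts that span them (GRCh38). Of the 6147 introns, 5868 had such a transcript. Capitals mark the first 2 and last 2 bases of each intron, except in USP21, where they mark a start typical of the minor class (ATATCC), the branch-point letters CCTTAAC and the final AG. The first 3 introns are short enough to be given whole, 5′ to 3′ on the gene's strand: WDR46 (chr6:33279375-33279496, minus strand) and USP21 (chr1:161164613-161164834, plus strand) were more retained with ASO-1570, and SRSF5 (chr14:69769252-69769510, plus strand) was less retained.
WDR46 intron, 122 bases: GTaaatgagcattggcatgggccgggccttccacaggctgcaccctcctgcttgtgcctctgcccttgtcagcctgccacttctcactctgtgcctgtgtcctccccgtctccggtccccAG
USP21 intron, 222 bases: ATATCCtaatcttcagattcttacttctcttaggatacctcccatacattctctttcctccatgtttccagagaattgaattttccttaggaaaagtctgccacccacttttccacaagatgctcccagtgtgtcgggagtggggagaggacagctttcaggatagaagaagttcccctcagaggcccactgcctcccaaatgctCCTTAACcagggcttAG
SRSF5 intron, 259 bases: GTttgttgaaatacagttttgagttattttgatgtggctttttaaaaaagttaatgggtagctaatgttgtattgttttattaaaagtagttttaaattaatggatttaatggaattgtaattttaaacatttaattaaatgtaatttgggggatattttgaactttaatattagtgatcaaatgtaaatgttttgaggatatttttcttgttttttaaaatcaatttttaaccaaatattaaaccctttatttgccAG

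For longer introns the splice sites are given, with 10 exon and 20 intron bases at the 5′ site and 30 intron and 10 exon bases at the 3′ site. KIAA1217 (chr10:24545104-24545826, plus strand), FNBP1L (chr1:93551106-93552408, plus strand) and BICD2 (chr9:92713462-92715252, minus strand) were more retained, and the other 3 were less retained: NECAP1 (chr12:8090300-8092675, plus strand), CLK1 (chr2:200859747-200861237, minus strand) and CLK4 (chr5:178616949-178618555, minus strand).
KIAA1217 5′ site: atatcgtcagGTagttttaccttaaaccca
KIAA1217 3′ site: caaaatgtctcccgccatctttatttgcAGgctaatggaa
FNBP1L 5′ site: aacagtaaagGTgcagtaacttatatctaa
FNBP1L 3′ site: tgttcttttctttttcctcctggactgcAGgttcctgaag
BICD2 5′ site: cacaccgagcGTaagtcacacctgtgcctg
BICD2 3′ site: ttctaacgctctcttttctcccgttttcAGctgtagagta
NECAP1 5′ site: gatggtactgGTaagagaactgggattttg
NECAP1 3′ site: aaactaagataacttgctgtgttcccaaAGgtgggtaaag
CLK1 5′ site: ttcacatgggGTatgaacgtttttaaaaca
CLK1 3′ site: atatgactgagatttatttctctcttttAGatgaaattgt
CLK4 5′ site: gtcacgttcgGTatgattggttttgttttc
CLK4 3′ site: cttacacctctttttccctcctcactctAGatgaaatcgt

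TRA2B itself had no retained-intron event in any table. Its level fell to 72.7 to 75.6 CPM with ASO-1570 at 200 nM in U87MG, against 148 to 159 CPM with ASO-CTL (log2 change -1.03, edgeR adjusted p = 3.84e-07). With the siRNA it fell further, to 22.1 to 27.7 CPM in U87MG against 173 to 184 CPM with control siRNA (log2 change -2.83, edgeR adjusted p = 2.3e-09). MDA-MB-231 showed the same order, at -0.87 with 200 nM ASO-1570 and -3.11 with the siRNA on the log2 scale. In the xenograft TRA2B did not pass the test (76.5 to 120 CPM against 81.2 to 134 CPM, edgeR adjusted p = 0.707). Libraries held 259885034 to 356831838 gene counts at 200 nM and 74978304 to 112813820 in the other experiments, so the 200 nM experiment was the deepest. In the tumours the epithelial markers summed to 1550 to 3900 CPM in treated and 2090 to 4260 CPM in control samples, and fibroblast markers to 9.57 to 32.1 and 8.05 to 19.6 CPM. In such bulk samples a smaller share of a cell type and less RNA per cell cannot be told apart. No read counts stand behind the deposited PSI values, so the depth of each intron is unknown.

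In U87MG, ASO-1570 changed retention of 443 introns at 200 nM, 198 more retained and 245 less retained of 2593 tested, and of 287 introns at 50 nM, 112 more and 175 less of 2569. Introns were tested where no library lacked a value and the libraries spanned at least 0.05, which left 2593 of the 4908 with a value in every library of U87MG at 200 nM. An intron was called when its PSI differed by at least 0.1 and its limma adjusted p, over all event types, was below 0.05. The called share in U87MG was 17.1% at 200 nM, beside 19.6% of all splicing events (7.64% of introns more and 9.45% less retained), and 11.2% at 50 nM, beside 13.8% (4.36% more and 6.81% less). Of the called retained introns 44.7% were higher at 200 nM, whereas of the called cassette exons, which are whole exons included or skipped, 20.2% were higher. The other event types were nearer to retained introns. The share was 38.1% for alternative 3′ splice sites, 40.8% for alternative 5′ splice sites and 56.9% for mutually exclusive exons. At 50 nM it was 39% for retained introns, 21.5% for cassette exons, and 36.7%, 42.1% and 55% for the others in that order. In MDA-MB-231, 10 introns were more and 5 less retained at 200 nM of 2330 tested (0.429% and 0.215%, together 0.644%, beside 1.42% of all events), and 1 was more retained at 50 nM of 2403 (0.0416%, beside 0.199%). At 200 nM the MDA-MB-231 count lay between 3 and 41 as each library was left out in turn, and without treated replicate 3 it was 41. The U87MG count at 50 nM was 117 to 124 when any 1 of its control libraries was left out, 168 without treated replicate 1 and 191 without treated replicate 2.

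No intron was called with the siRNA or in the xenograft, which does not show that none changed. With the siRNA 0 of 2565 introns passed in MDA-MB-231 and 0 of 2471 in U87MG (0% of all splicing events too, limma). An unadjusted limma p under 0.05 was met by 173 introns in MDA-MB-231 (6.74%, beside 5.89% of all events). In U87MG it was met by 138 (5.58%, beside 5.35%). In the xenograft 0 of 4013 passed (0% of all events), and 139 had an unadjusted limma p under 0.05 (3.46%, beside 4.14%). A fit with all 4 groups of the siRNA table called 8 introns in MDA-MB-231 and 5 in U87MG.

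The median level of retention differed little between the groups. Over the 3896 introns with a value in every library of the series, the median PSI was 0.079 to 0.097 with ASO-1570 at 200 nM in U87MG, against 0.071 to 0.073 with ASO-CTL, and these groups did not overlap. Their mean PSI over the same introns did overlap, at 0.2822 to 0.2923 with ASO-1570 and 0.2857 to 0.2903 with ASO-CTL. The share of introns over 0.5 was lower with ASO-1570, at 25.59% to 26.23% against 26.49% to 26.77%. The higher median thus does not stand for more retention at every level. At 50 nM the median was 0.086 to 0.105 in treated U87MG and 0.0805 to 0.086 in control U87MG, which touched at 0.086. In MDA-MB-231 the groups overlapped at 200 nM (0.079 to 0.093 against 0.079 to 0.083) and at 50 nM (0.102 to 0.111 against 0.094 to 0.107). With the siRNA the groups overlapped in both lines. Xenograft tumours held far more retained intron and varied more, from 0.2495 to 0.4355 with ASO-1570 and from 0.202 to 0.402 with ASO-CTL. Mitochondrial genes took 22.8% to 75.3% of the counts in treated tumours and 17.7% to 53.9% in control tumours, against 1.73% to 3.16% over the cell line libraries, and their part in the tumours' retention was not tested.

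**Figure D1:**
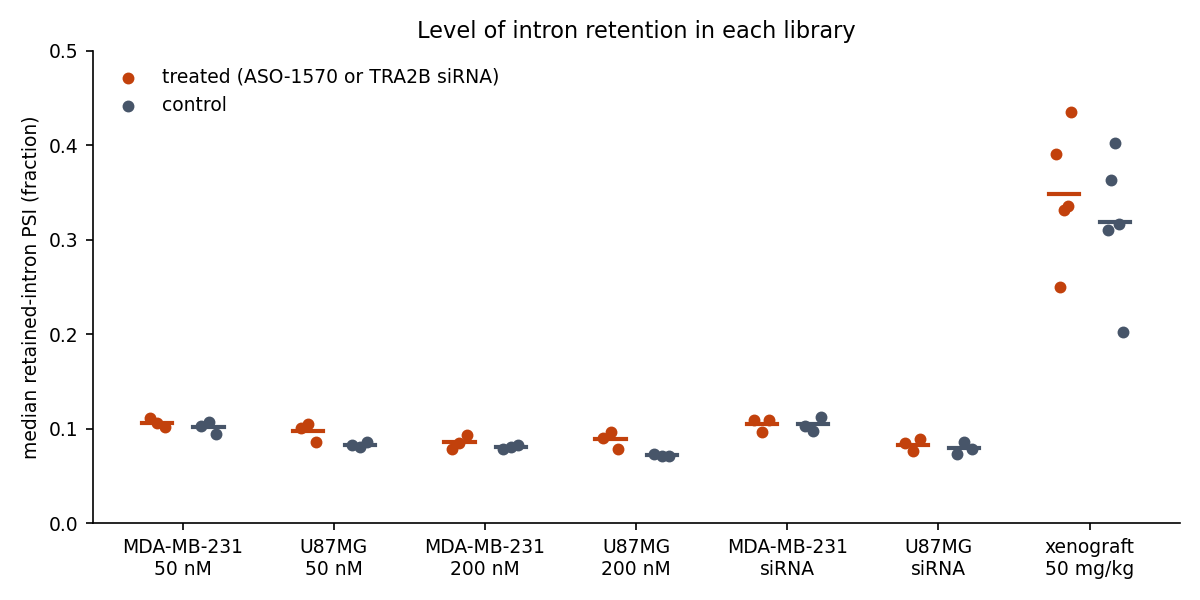
Median PSI over the 3896 introns measured in every library (vertical axis, fraction) for each library, with treated libraries left of their controls in each of the 7 comparisons (horizontal axis). Each point is 1 library and each short line a group mean. Treated U87MG libraries at 200 nM lie above their controls in this median (0.079 to 0.097 against 0.071 to 0.073). Their mean PSI, not drawn, overlapped with that of the controls. The tumours lie highest and are the most spread.

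In U87MG the direction of change went with how much of an intron was retained. Among introns with a mean PSI under 0.1 at 200 nM, the median change was 0.0305 and 71.3% had a higher mean with ASO-1570. Among those over 0.5 the median change was -0.0247 and 42.3% had a higher mean, with 61 called more and 141 called less retained. At 50 nM these values were 0.0223 and 68.3% for the low introns and -0.028 and 39.6% for the high ones. A PSI near 0 can only rise and one near 1 can only fall, also to pass the range filter, and how far this sets the split was not tested.

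Some introns moved in most ASO-1570 comparisons. The intron of KIAA1217, which interrupts its coding sequence and brings a stop codon into frame, was the only intron called in all 4. In U87MG at 200 nM its PSI was 0.703, 0.747 and 0.717 with ASO-1570, against 0.116, 0.117 and 0.111 with ASO-CTL (change 0.61, SE 0.0197, limma adjusted p = 0.000163). At 50 nM it was 0.703, 0.829 and 0.775 in treated and 0.163, 0.162 and 0.157 in control U87MG (change 0.61, limma adjusted p = 0.00126). Every treated U87MG library thus lay far above every control. In MDA-MB-231 the treated values were as high but the controls started higher, so the change was smaller: 0.824, 0.787 and 0.778 against 0.373, 0.366 and 0.395 at 200 nM (change 0.42, limma adjusted p = 0.00657), and 0.837, 0.834 and 0.777 against 0.489, 0.479 and 0.503 at 50 nM (change 0.33, limma adjusted p = 0.0467). The call of the KIAA1217 intron at 50 nM in MDA-MB-231 was lost with no range filter and when a library was left out, and that at 200 nM when a library was left out. The level of its host gene did not pass the test in U87MG at 200 nM (100 against 95.2 CPM, edgeR adjusted p = 0.521).

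With the siRNA the KIAA1217 intron differed in the same direction by less and did not pass the test. Its PSI was 0.324, 0.308 and 0.32 with TRA2B siRNA against 0.2, 0.215 and 0.207 with control siRNA in U87MG (change 0.11, limma adjusted p = 0.43), and 0.665, 0.674 and 0.671 against 0.55, 0.565 and 0.589 in MDA-MB-231 (change 0.10, limma adjusted p = 0.649). The groups did not overlap in either line. Non-overlap was met by 10.4% of introns tested in U87MG and 11.7% in MDA-MB-231. In the xenograft its PSI was 0.608, 0.659, 0.641, 0.644 and 0.678 with ASO-1570 and 0.517, 0.727, 0.688, 0.58 and 0.651 with ASO-CTL, which overlapped (limma adjusted p = 0.936).

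Another 4 introns were more retained in 3 of the 4 ASO-1570 comparisons, those other than MDA-MB-231 at 50 nM. WDR46 encodes a nucleolar protein of ribosome assembly. Its short coding intron stood at 0.516, 0.661 and 0.651 in treated and 0.128, 0.136 and 0.133 in control U87MG at 200 nM (change 0.48, limma adjusted p = 0.00169), and at 0.38, 0.373 and 0.312 against 0.151, 0.145 and 0.132 in MDA-MB-231 (change 0.21, limma adjusted p = 0.0263). The groups were apart in both lines. USP21 encodes a deubiquitinating enzyme, and its minor-type intron stood at 0.625, 0.687 and 0.675 in treated and 0.246, 0.253 and 0.318 in control U87MG at 200 nM (change 0.39, limma adjusted p = 0.00126). MDA-MB-231 had the USP21 intron at 0.505, 0.47 and 0.42 against 0.249, 0.217 and 0.19 (change 0.25, limma adjusted p = 0.0292).

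FNBP1L, which links membrane curvature to actin assembly, held its coding intron at 0.838, 0.833 and 0.624 in treated and 0.36, 0.3 and 0.282 in control U87MG at 200 nM (change 0.45, limma adjusted p = 0.00652). The siRNA gave 0.867, 0.827 and 0.759 against 0.64, 0.677 and 0.632 in MDA-MB-231 (limma adjusted p = 0.577) and 0.418, 0.576 and 0.502 against 0.371, 0.342 and 0.332 in U87MG (limma adjusted p = 0.734). As with KIAA1217 the FNBP1L groups did not overlap in either line and the test was not passed. BICD2, a cargo adaptor of the dynein motor, had a smaller change, to 0.151, 0.167 and 0.174 in treated U87MG at 200 nM against 0.065, 0.054 and 0.065 in control U87MG (change 0.10, limma adjusted p = 0.00498). Its call at 50 nM in U87MG was lost in a fit of all 4 groups.

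Introns of DST, FBXO7, NECAP1 and TCEAL4 were less retained in the same 3 comparisons. DST encodes dystonin, a linker of cytoskeletal filaments, and its intron (chr6:56466196-56470127) gave the largest fall. Its PSI was 0.048, 0.035 and 0.057 in treated and 1 in every control U87MG library at 200 nM, and 0.05, 0.061 and 0.121 in treated and 1 in every control MDA-MB-231 library (limma adjusted p = 0.000105 and 0.000516). The spliced form of the DST intron was thus counted only in treated cells at that dose, in both lines. NECAP1, a clathrin-associated protein of endocytosis, stood at 0.128, 0.178 and 0.192 in treated and 0.671, 0.695 and 0.697 in control MDA-MB-231 at 200 nM (change -0.52, limma adjusted p = 0.00254), and at 0.07, 0.081 and 0.091 against 0.284, 0.426 and 0.48 in U87MG (change -0.32, limma adjusted p = 0.0091). FBXO7, a substrate receptor of an SCF ubiquitin ligase, had its long intron (chr22:32487829-32493104) at 0.042, 0.024 and 0.033 in treated and 0.485, 0.555 and 0.629 in control U87MG at 200 nM (limma adjusted p = 0.00106). The FBXO7 intron stood at 0.184, 0.185 and 0.33 against 0.91, 1 and 0.73 in MDA-MB-231 (limma adjusted p = 0.0306). The intron of TCEAL4 lies in its 5′ UTR and stood at 0.312, 0.294 and 0.32 in treated and 0.742, 0.735 and 0.751 in control U87MG at 200 nM (change -0.43, limma adjusted p = 0.000348).

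Of 14 introns called in MDA-MB-231 at 200 nM and chosen by the rule for naming, 3 kept their call as each library was left out in turn (those of DST, NECAP1 and PCBP1-AS1). In U87MG 36 of 49 calls chosen by the same rule held in this way at 200 nM, and 20 of 38 at 50 nM. The remaining MDA-MB-231 calls at 200 nM included introns of ZFC3H1, a partner of the nuclear exosome (1, 0.751 and 1 in treated, 0.432, 0.442 and 0.411 in control, limma adjusted p = 0.0486), and PSMB9, an immunoproteasome subunit (0.576, 0.465 and 0.539 against 0.149, 0.169 and 0.257, limma adjusted p = 0.0311). The ZFC3H1 groups were apart, and its call was lost on the logit scale, with no range filter and with missing values allowed. A 76-base intron of SMC4, a condensin subunit, stood at 0.933, 0.957 and 0.964 in treated and 0.5, 0.638 and 0.532 in control (limma adjusted p = 0.0284), while the level of the SMC4 gene fell to 146 CPM, against 375 CPM in control. PCBP1-AS1, an antisense transcript, fell to 0.314, 0.256 and 0.228 in treated cells against 1 in every control (limma adjusted p = 0.00248) with the gene at 2.06 CPM in treated and 2.88 CPM in control. The other 2 more retained introns lay in CD79A, a B-cell receptor gene at 0.177 against 0.164 CPM, and IFT140, a gene of ciliary transport.

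**Figure D2:**
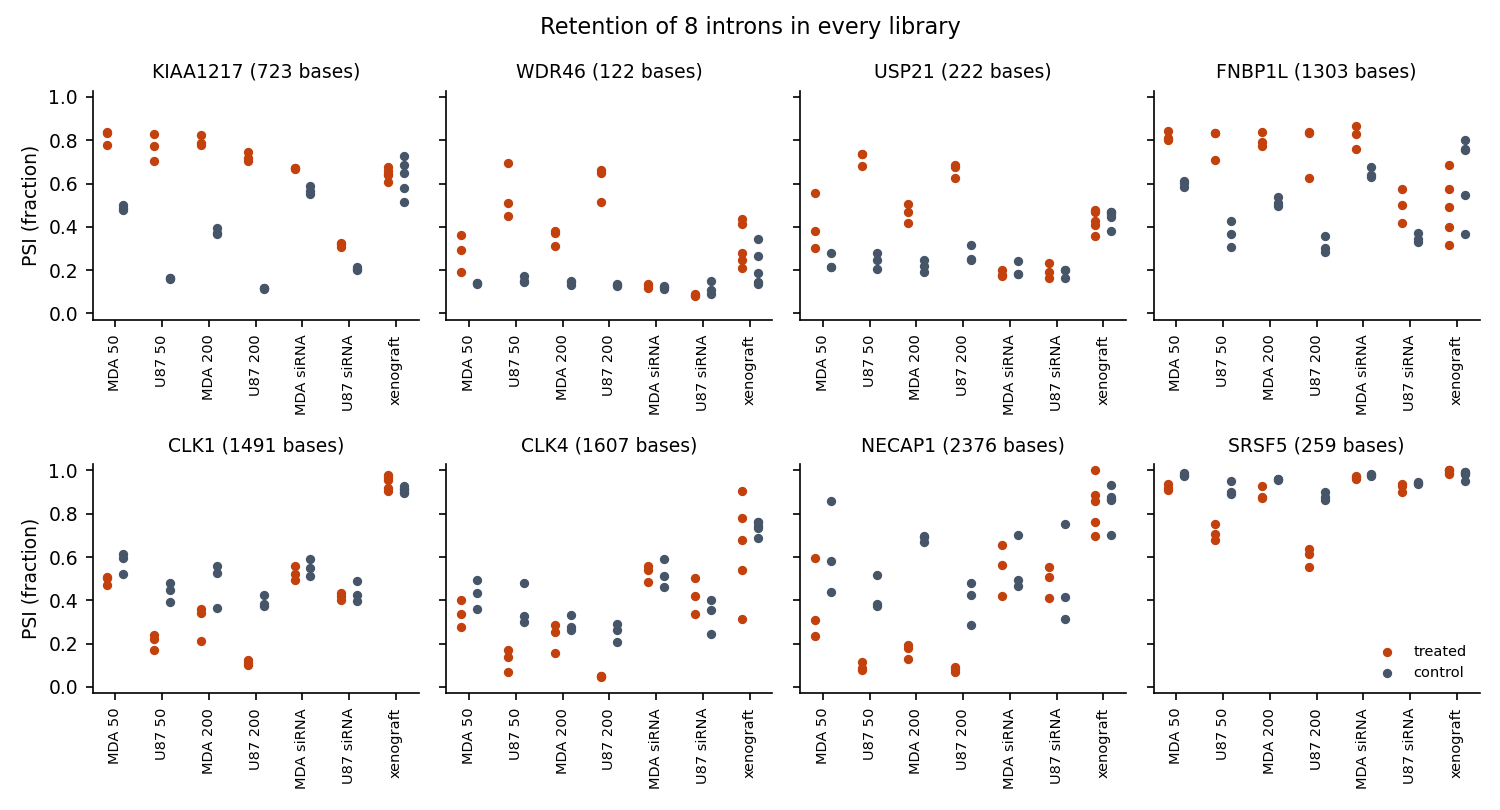
PSI (vertical axis, fraction) of 8 introns in every library of the 7 comparisons (horizontal axis), with treated libraries left of controls. Each point is 1 library. The introns of KIAA1217, WDR46, USP21 and FNBP1L are higher with ASO-1570 in U87MG, and those of CLK1, CLK4, NECAP1 and SRSF5 are lower.

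Introns in SR protein genes, TRA2A and their kinases were less retained in U87MG wherever they were called. Of 12 tested introns of this list, 7 in 4 genes were less retained at 200 nM and 0 more, and at 50 nM 8 of 12 in 5 genes were less retained and 0 more, beside 9.45% and 6.81% of all retained introns called lower. The list's median change was -0.1772 at 200 nM and -0.1965 at 50 nM, against 0.0047 and 0 over all introns tested. In MDA-MB-231 0 of 8 introns at 200 nM and 0 of 9 at 50 nM were called (limma), with medians of -0.0277 and -0.0383. With the siRNA 0 were called and the medians were 0.0368 in MDA-MB-231 and 0.0317 in U87MG. Several of these introns overlap each other within a gene, so they are not separate measurements.

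CLK1 and CLK4 are kinases that phosphorylate SR proteins, and each held a coding intron with a stop codon in frame. The CLK1 intron stood at 0.126, 0.1 and 0.112 in treated and 0.427, 0.385 and 0.372 in control U87MG at 200 nM (change -0.28, SE 0.0204, limma adjusted p = 0.00106). The CLK4 intron stood at 0.044, 0.051 and 0.051 against 0.261, 0.291 and 0.209 (change -0.20, limma adjusted p = 0.0034). No treated library reached any control for either gene. The host genes were higher, at 34.9 against 22.8 CPM for CLK1 and 12 against 8.73 CPM for CLK4. In MDA-MB-231 the CLK1 intron stood at 0.343, 0.212 and 0.362 in treated and 0.561, 0.525 and 0.364 in control at 200 nM, apart by little and short of the threshold (limma adjusted p = 0.275). In the xenograft CLK1 stood at 0.907 to 0.98 in treated and 0.898 to 0.93 in control tumours (limma adjusted p = 0.763).

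SRSF5, itself an SR protein gene, carries nested introns, the one of 259 bases within a longer one. The inner one stood at 0.635, 0.553 and 0.612 in treated and 0.877, 0.862 and 0.899 in control U87MG at 200 nM (change -0.28, limma adjusted p = 0.00364), and the outer one at 0.821, 0.773 and 0.81 against 0.993, 0.984 and 0.982 (change -0.18, limma adjusted p = 0.00298). Both were mostly retained in either group. The inner SRSF5 intron is unusually AT-rich, with a GC content of 22.01%. TRA2A, the paralog of TRA2B, has 3 overlapping introns from chr7:23521841, all less retained in U87MG. The shortest, of 280 bases, stood at 0.189, 0.167 and 0.236 in treated and 0.359, 0.374 and 0.367 in control U87MG at 200 nM (change -0.17, limma adjusted p = 0.00495). With the siRNA the difference in this TRA2A intron had the opposite sign, at 0.832, 0.763 and 0.823 against 0.546, 0.468 and 0.605 in MDA-MB-231 (limma adjusted p = 0.405) and 0.679, 0.671 and 0.758 against 0.506, 0.504 and 0.513 in U87MG (limma adjusted p = 0.455). Neither siRNA change passed the test, though the groups did not overlap. The TRA2A gene itself was higher under both agents in U87MG, by 1.45 on the log2 scale with 200 nM ASO-1570 (114 against 42.4 CPM) and by 1.55 with the siRNA (161 against 55.1 CPM).

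Other RNA-binding factors had 19 introns tested in U87MG at 200 nM, of which 5 were less and 1 more retained, beside 9.45% and 7.64% of all retained introns. At 50 nM 4 were less and 1 more of 21, beside 6.81% and 4.36%. The intron of EWSR1, an RNA-binding protein of transcription and splicing, stood at 0.501, 0.429 and 0.436 in treated and 0.69, 0.675 and 0.726 in control U87MG at 200 nM (limma adjusted p = 0.00452), and LUC7L, a factor associated with the U1 particle, at 0.23, 0.24 and 0.245 against 0.585, 0.745 and 0.65 (limma adjusted p = 0.0024). The exception was NXF1, the main mRNA export receptor, whose intron averaged 0.23 in treated and 0.123 in control U87MG (SD 0.0106 and 0.00252, limma adjusted p = 0.00455).

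Noncoding host genes of small nucleolar RNAs, whose introns carry those RNAs, gave 14 less and 3 more retained of 62 introns tested in U87MG at 200 nM, and 14 less and 2 more of 66 at 50 nM, beside the same shares of all retained introns. The 14 less retained introns lay in 5 genes at 200 nM and 6 genes at 50 nM, so many share a host. SNHG17 stood at 0.297, 0.287 and 0.336 in treated and 0.961, 0.836 and 0.846 in control U87MG at 200 nM (change -0.57, limma adjusted p = 0.00106), and SNHG12 at 0.438, 0.412 and 0.382 against 0.935, 0.981 and 1 (change -0.56, limma adjusted p = 0.000573). SNHG1 stood at 0.064, 0.056 and 0.067 against 0.277, 0.228 and 0.257 (limma adjusted p = 0.00181). Of these genes SNHG1 and SNHG17 were higher in treated U87MG, at 210 against 85.7 CPM and 53.8 against 18.8 CPM, and SNHG12 was lower, at 11.6 against 15.4 CPM. The 3 more retained introns at 200 nM lay in SNHG8, which averaged 0.627 in treated and 0.427 in control U87MG (limma adjusted p = 0.0074), and in SNHG12 and SNHG17 themselves. A nested SNHG12 intron of 447 bases averaged 0.686 against 0.548 (limma adjusted p = 0.0173), and an SNHG17 intron of 743 bases 0.854 against 0.649 (limma adjusted p = 0.0334). SNHG12 and SNHG17 thus held introns that moved in opposite directions.

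The smaller lists gave few calls. Of introns known to be regulated or detained, 4 of 9 were less retained in U87MG at 200 nM and 3 of 8 at 50 nM, beside 9.45% and 6.81% of all retained introns. They were CLK1 and CLK4 of above, OGT, the O-GlcNAc transferase (0.224 in treated against 0.358 in control at 200 nM), and, at 200 nM, PABPC4, a cytoplasmic poly(A)-binding protein (0.378 against 0.689). Of spliceosome core genes, SNRPA1 of the U2 particle and SF3B1, which holds the branch point, were less retained at 200 nM and SNRPE, an Sm protein, more, of 8 introns tested, beside 9.45% called lower and 7.64% higher. HNRNPH3 fell to 0.0593 against 0.217, the call among 7 introns of hnRNP genes, and RBM8A of the exon junction complex fell to 0.204 against 0.414, the call among 2 introns of nonsense-mediated decay genes, both at 200 nM and beside the same 9.45%. ATR, a checkpoint kinase of DNA damage, gave the single call among cell cycle and repair genes, at 50 nM. None of the 8 lists had a called intron in MDA-MB-231, with the siRNA or in the xenograft.

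The largest changes in U87MG beyond these lists included both well and poorly expressed genes. TRMU, an enzyme that thiolates mitochondrial tRNA, held its coding intron at 0.635, 0.692 and 0.74 in treated and 0.212, 0.206 and 0.25 in control U87MG at 200 nM (change 0.47, limma adjusted p = 0.000999), and at 0.797, 0.913 and 0.769 against 0.206, 0.25 and 0.224 at 50 nM (change 0.60, limma adjusted p = 0.00198). EXOSC10, a catalytic subunit of the nuclear exosome, stood at 0.19, 0.135 and 0.184 against 0.981, 0.698 and 0.868 at 200 nM (change -0.68, limma adjusted p = 0.00279), and CHD8, a chromatin remodeller, at 0.068, 0.114 and 0.2 against 1, 0.826 and 1 at 50 nM (change -0.81, limma adjusted p = 0.00216). These groups were widely apart. Introns of TRAF5, an adaptor of TNF receptors, and of SNHG11 also fell by over 0.5, at 2.12 CPM in treated and 3.81 CPM in control for TRAF5.

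Other large changes came from genes near the limit of detection. CD22 (1, 0.363 and 1 in treated, 0 in every control), LGALS4 (0.16, 0.141 and 0.104 against 1 in every control) and LCN2 (1, 0.552 and 0.573 against 0.109, 0 and 0) were called in U87MG at 200 nM, at 0.31 against 0.291, 2.15 against 0.0412 and 0.138 against 0.14 CPM. A PSI of 0 or 1 in such a gene can rest on few reads. Of the 443 called introns, 426 had a host matched to 1 gene identifier, and 408 of these hosts had at least 1 CPM in both groups, with 184 introns more and 224 less retained. At 50 nM 267 of 287 called introns met this limit.

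Introns that begin like those of the minor class were among the more retained. The start ATATCC or GTATCC, searched at the intron's 5′ end on the gene's strand, was chosen after the USP21 value was seen, so the counts below are descriptions. It was found in 47 of 5868 introns (0.801%), in 42 genes. An intron near 0 in control cells can pass the range filter only by rising, so the counts are given over all introns with a value in every library of the comparison, whether or not they passed it. In U87MG at 200 nM 17 of 40 minor-start introns were called more retained and 0 less (42.5%), beside 168 of 4682 other introns with a sequence (3.59%), and 37 of 40 had a higher mean with ASO-1570 (92.5%, beside 54.9%). At 50 nM 13 of 39 were more and 0 less retained (33.3%, beside 2.06%). The starts of 5 of them, those with the smallest adjusted p in U87MG at 200 nM other than USP21, are shown with 10 exon bases before and 14 intron bases after the capitals.
TEPSIN 5′ site (chr17:81237072-81237386, minus strand): gagattgctaGTATCCttccttgatgtccc
EDC4 5′ site (chr16:67881846-67881953, plus strand): gagcaggaacGTATCCttgagactggtagc
ATG3 5′ site (chr3:112532781-112534268, minus strand): gagttcatatGTATCCttccctgtatgtaa
UBL5 5′ site (chr19:9828394-9828591, plus strand): ttaaatgcaaGTATCCactggcagccgaga
TTC23 5′ site (chr15:99218714-99218897, minus strand): cccttcaaaaGTATCCttttgcctctaact

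All but UBL5 go on with TT after the 6 letters, the fuller minor-class start, which 24 introns had. In U87MG at 200 nM 14 of the 24 passed the range filter and 9 were called more retained (64.3%). That share was 60.7% over all minor-start introns that passed it, and 7.52% over all tested introns with a sequence. TEPSIN, an accessory protein of the AP-4 vesicle coat, averaged 0.387 ± 0.0351 in treated and 0.0523 ± 0.015 in control U87MG at 200 nM (SD, n = 3 each, limma adjusted p = 0.000904). EDC4, a scaffold of mRNA decapping, averaged 0.671 ± 0.055 in treated and 0.243 ± 0.00971 in control (limma adjusted p = 0.00114). ATG3, an autophagy conjugating enzyme, averaged 0.298 ± 0.038 against 0.0203 ± 0.000577, UBL5, a ubiquitin-like protein, 0.26 ± 0.0331 against 0.013 ± 0.001, and TTC23 0.36 ± 0.0488 against 0.0297 ± 0.00902. Each was nearly fully spliced in control cells apart from EDC4. HADH, an enzyme of fatty acid oxidation, was the exception in direction among those that passed the filter, at 0.643 ± 0.119 in treated and 0.821 ± 0.207 in control, within its spread.

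Over the minor-start introns with a value in every library of a table, whether or not they passed the filter, the median PSI was 0.243, 0.3345 and 0.308 in treated U87MG at 200 nM, against 0.045, 0.0435 and 0.05 in control U87MG. At 50 nM it was 0.314, 0.404 and 0.228 against 0.058, 0.062 and 0.05. MDA-MB-231 gave 0.149, 0.149 and 0.1095 against 0.0545, 0.0635 and 0.063 at 200 nM, and 0.186, 0.163 and 0.095 against 0.084, 0.058 and 0.049 at 50 nM. Treated libraries lay above every control in all 4 of these comparisons. In MDA-MB-231 35 of 40 had a higher mean at 200 nM (87.5%, beside 52.8% of other introns with a sequence) and 36 of 40 at 50 nM (90%, beside 54.5%). The USP21 intron at 200 nM was the 1 call there, and the count was 8 without treated replicate 3 and 0 without any other 1 library. With the siRNA the libraries overlapped, at 0.0545, 0.0685 and 0.059 against 0.068, 0.056 and 0.0545 in MDA-MB-231 and 0.0435, 0.0405 and 0.0575 against 0.0365, 0.0585 and 0.0495 in U87MG. In the xenograft tumours ranged from 0.2285 to 0.459 with ASO-1570 and from 0.186 to 0.4175 with ASO-CTL, and 20 of 40 introns had a higher mean (50%, beside 59.3%).

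**Figure D3:**
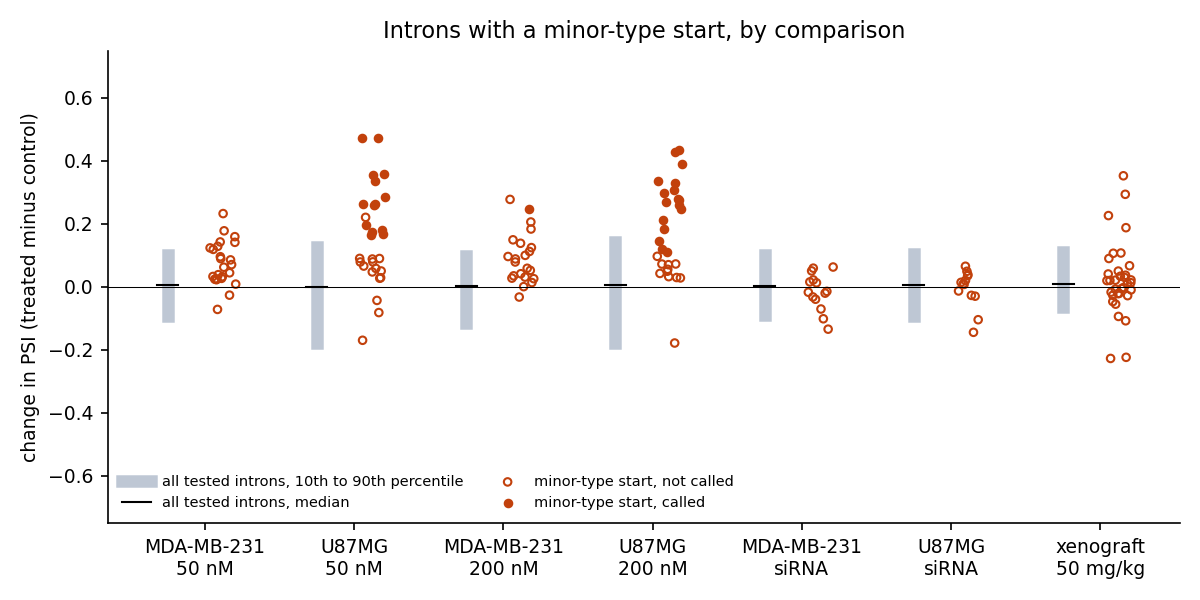
Change in PSI (vertical axis, treated minus control) of each tested intron that starts with ATATCC or GTATCC, in the 7 comparisons (horizontal axis), with called introns marked apart. Introns near 0 in controls enter the plot only by rising. The points lie almost all above 0 with ASO-1570 in both lines and on both sides of 0 with the siRNA and in the xenograft.

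Since weakly retained introns had the higher median change, minor-start introns were also set beside others of the same control level, again with no range filter. Among introns with a control PSI under 0.1 in U87MG at 200 nM, all 25 minor-start introns had a higher mean and 11 were called more retained (44%), whereas of 2257 other introns 67.2% had a higher mean and 46 were called (2.04%). At 50 nM all 23 had a higher mean and 10 were called (43.5%), beside 66.7% and 26 of 2102 (1.24%). With the siRNA 8 of 24 had a higher mean in U87MG (33.3%, beside 54.2%) and 9 of 22 in MDA-MB-231 (40.9%, beside 55.1%). The branch-point letters CCTTAAC in the last 40 bases, searched on the gene's strand and overlapping in part with this set, were in 15 introns (0.256%). In U87MG at 200 nM 9 of them passed the range filter, with 6 called more and 1 less retained. Of all tested introns with a sequence 7.52% were called more and 9.39% less retained. At 50 nM it was 7 more and 2 less of 10, beside 4.21% and 6.66%.

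Genes of the minor spliceosome itself, named after these values were seen, changed in both directions in U87MG, where 6 of 11 tested were higher and 1 lower at 200 nM, beside 25.8% and 23.9% of all genes. RNU4ATAC, the gene of the U4atac RNA, stood at 1.02, 1.65 and 1.41 CPM in treated and 0.101, 0.0874 and 0.0834 CPM in control U87MG at 200 nM (log2 change 3.93, edgeR adjusted p = 1.32e-06), and RNU11 at 0.208 against 0.011 CPM (log2 change 4.25, edgeR adjusted p = 0.000105). Libraries made from mRNA capture little of such short RNAs, so these levels are low. The RNU11 controls were at 0.0029, 0.0101 and 0.02 CPM, which rests on very few reads, so the size of its change is uncertain. SNRNP48, a protein of the U11/U12 particle, stood at 31.3, 41.3 and 35.5 against 15.6, 14.4 and 14.7 CPM (log2 change 1.30, edgeR adjusted p = 9.91e-06). SCNM1 was higher too (log2 change 1.02) and PDCD7, another U11/U12 protein, lower (log2 change -0.49, edgeR adjusted p = 0.000392). In MDA-MB-231 at 200 nM RNU4ATAC was also higher (log2 change 3.28) and so was SCNM1 (log2 change 0.70, edgeR adjusted p = 0.00233), while RNU11 (log2 change -0.0068) and SNRNP48 (log2 change -0.04) did not pass the test. RNU11 was higher there at 50 nM (log2 change 3.11, edgeR adjusted p = 0.00588). It stood at 0.132, 0.108 and 0.0563 CPM in treated and 0.00916, 0.0108 and 0.0119 CPM in control, again a level of very few reads. With the siRNA RNU4ATAC did not pass the test (log2 change 1.23 in U87MG, edgeR adjusted p = 0.0643, and -0.28 in MDA-MB-231, edgeR adjusted p = 0.869). Their part in the retention of minor-type introns was not tested.

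More and less retained introns differed in build. In U87MG at 200 nM the more retained introns had a median length of 335.5 bases, the less retained 588, and the tested introns without a call 277. Median GC content was 57.3%, 49.15% and 57.22% in the same order. The spliced form was an annotated junction for 94.95% of more retained and 72.65% of less retained introns, beside 88.05% of introns without a call. The intron was placed within coding sequence for 73.74% and 44.9%, beside 63.16%. An intron without an annotated junction could not be placed, so it counts here as not coding. At 50 nM the median lengths were 311, 573 and 275 bases and the GC contents 52.54%, 47.68% and 56.75%. Less retained introns were thus longer, richer in A and T, and less often placed within annotated coding sequence at both doses. Introns of 1 gene can share these features, and no test was made of them.

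**Figure D4:**
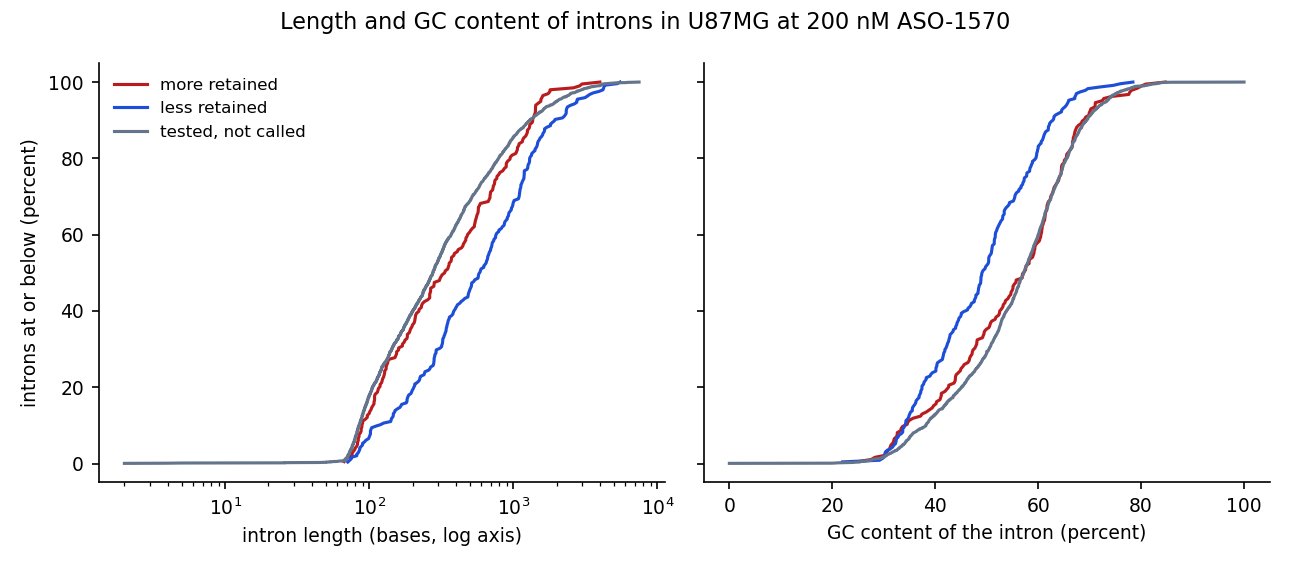
Share of introns at or below a given length (left, bases on a log axis) and GC content (right, percent) in U87MG at 200 nM, for more retained, less retained and tested introns without a call. The curve of less retained introns lies toward longer introns (median 588 bases) and lower GC content (median 49.15%).

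The letters GAAGAA, a purine-rich word of the kind TRA2 proteins bind, were searched on the gene's strand in the introns and in 100 bases of exon on each side. In U87MG at 200 nM the word was in 11.89% of more retained and 22.94% of less retained introns with a sequence, beside 12.96% of those without a call and 14.71% of all introns with a sequence. In the flanking exons it was in 11.89% and 16.45%, beside 11.49%. Longer introns hold any word more often. The shorter word AGAA, which also lies within GAAGAA, was counted per 100 intron bases. At 200 nM its median was 0.289 in more and 0.462 in less retained introns, beside 0.255 in those without a call. At 50 nM these medians were 0.415 and 0.445, beside 0.257, so more and less retained introns were close. GAAGAA was in 18.45% of more and 23.31% of less retained introns at 50 nM, beside 13.17% of those without a call. Of 4203 introns within coding sequence whose frame was known, 3363 carried a stop codon in frame (80.01%), and the share was 81.25% among more retained and 85.45% among less retained introns at 200 nM.

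The U87MG changes at the lower dose came from other libraries with their own controls. Of the 443 introns called at 200 nM, 424 were tested at 50 nM and 404 changed in the same direction (95.3%, beside 78.5% of all introns tested in both). Introns called at both doses numbered 212, which is 47.9% of the calls at 200 nM and 73.9% of those at 50 nM, and all 212 moved the same way. MDA-MB-231 at 200 nM gave the same direction for 338 of 400 (84.5%, beside 62.5%), with a median change of 0.065 for introns more retained in U87MG and -0.06 for those less retained. Of the 15 introns called in MDA-MB-231 at 200 nM, 12 were called in U87MG, all in the same direction. Against the siRNA the share was 192 of 347 in U87MG (55.3%, beside 52.2%) and 167 of 334 in MDA-MB-231 (50%, beside 50.1%). Against the xenograft it was 198 of 353 (56.1%, beside 53.8%).

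**Figure D5:**
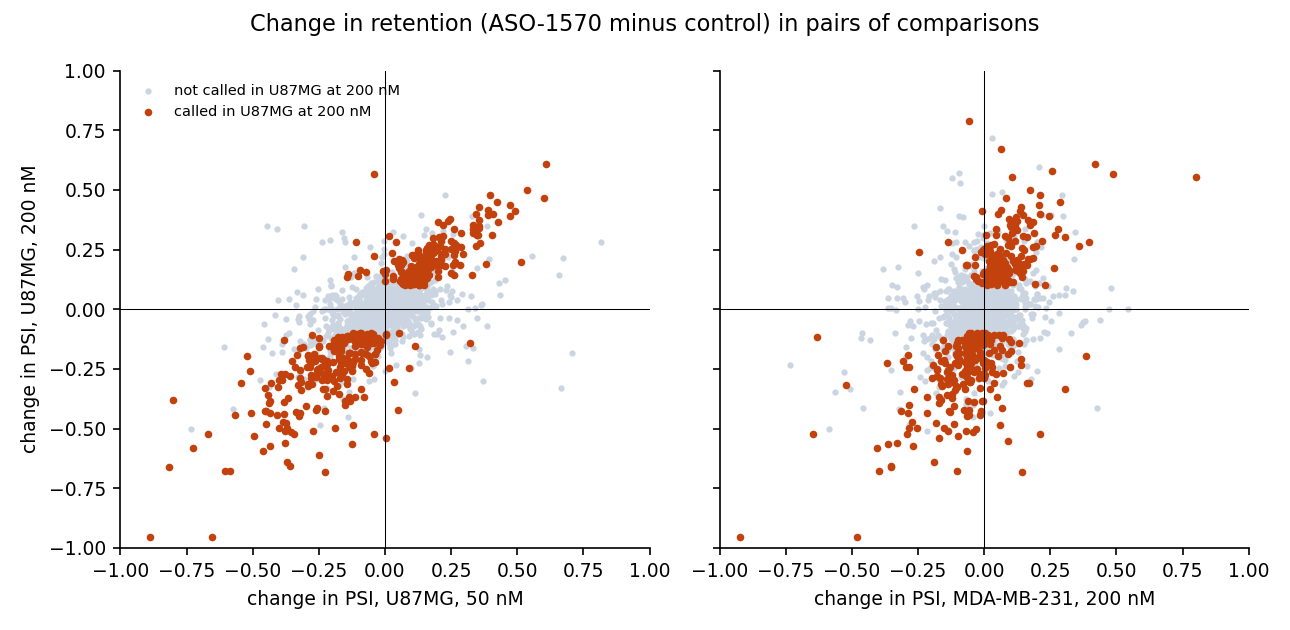
Change in PSI (treated minus control) of each intron in U87MG at 200 nM (vertical axis) against the change in another comparison (horizontal axis), with introns called in U87MG at 200 nM marked. The called introns follow a diagonal at 50 nM (404 of 424 in the same direction) and are more widely scattered against MDA-MB-231 at 200 nM (338 of 400 in the same direction).

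The xenograft values of the leading introns overlapped between the groups. WDR46 stood at 0.414, 0.208, 0.28, 0.247 and 0.434 with ASO-1570 and 0.146, 0.187, 0.343, 0.267 and 0.137 with ASO-CTL (change 0.10, limma adjusted p = 0.763). USP21 stood at 0.479, 0.408, 0.356, 0.425 and 0.47 against 0.467, 0.468, 0.444, 0.461 and 0.38, and FNBP1L at 0.315 to 0.688 against 0.366 to 0.803. In each case the groups overlapped, with some treated tumours outside the range of the controls. The introns of FBXO7 (1, 0.835, 1, 1 and 1 against 0.94, 1, 1, 0.795 and 0.907) and SMC4 (1, 1, 1, 0.971 and 1 against 1, 1, 0.926, 0.948 and 0.956) were close to full retention in every tumour. TRA2A stood at 0.891, 0.898, 0.767, 0.934 and 0.927 against 0.951, 0.973, 0.914, 0.932 and 0.872, and TRMU at 0.745, 0.591, 0.694, 0.557 and 0.761 against 0.625, 0.818, 0.623, 0.63 and 0.642. NECAP1 was likewise mostly retained, at 0.696 to 1 in treated and 0.7 to 0.931 in control tumours. The groups of 14 of 4013 introns did not overlap (0.349%, beside 0.609% of all splicing events).

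The response of 186 introns differed between the lines at 200 nM by an interaction test (6.2% of 2999 tested, beside 8.08% of all events), and of 99 at 50 nM (3.39%, beside 4.9%). The change was the larger in U87MG for 168 of the 186 and for 96 of the 99. Of the 186, 126 moved the same way in both lines and 60 the opposite way, with a median size of 0.0517 in MDA-MB-231 and 0.227 in U87MG. With the siRNA 0 introns differed between the lines (limma, beside 0.00571% of all events). At 50 nM the count was 188 without treated U87MG replicate 3. It was 54 to 64 without any 1 of U87MG control replicates 1 and 2, the MDA-MB-231 controls, and MDA-MB-231 treated replicates 2 and 3.

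Well expressed genes among the largest line differences were CHD8 and EXOSC10. The CHD8 intron at 50 nM stood at 0.203, 0.315 and 0.738 in treated and 0.613, 0.506 and 0.54 in control MDA-MB-231, and at 0.068, 0.114 and 0.2 against 1, 0.826 and 1 in U87MG, so the MDA-MB-231 change minus the U87MG change was 0.68 (limma adjusted p = 0.0409). EXOSC10 at 50 nM stood at 0.727, 0.787 and 1 against 0.883, 0.806 and 0.868 in MDA-MB-231, and at 0.353, 0.229 and 0.422 against 0.939, 0.958 and 0.861 in U87MG (difference 0.57, limma adjusted p = 0.0132). CIAO3, of cytosolic iron-sulphur assembly, stood at 1 in every treated MDA-MB-231 library against 0.742, 0.435 and 0.661, and in U87MG stood at 0.783, 0.649 and 1 against 1 in every control (difference 0.58, limma adjusted p = 0.029). At 200 nM OBSL1, a cytoskeletal adaptor, stood at 1 in every treated MDA-MB-231 library against 1, 1 and 0.734, and at 0.1, 0.249 and 0.356 against 0.795, 0.563 and 1 in U87MG (difference 0.64, limma adjusted p = 0.028).

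Host genes of called introns changed often, and in both directions. In U87MG at 200 nM, 366 host genes of called introns were tested and 247 changed in level (67.5%, edgeR), beside 49.7% of all genes. These shares were not matched for gene level. Of 426 called introns with a matched host, 408 had a host of at least 1 CPM, whereas all genes tested include some far below it. Hosts of more retained introns were higher in 66 and lower in 57 of 177 cases (37.3% and 32.2%, beside 25.8% and 23.9% of all genes), and hosts of less retained introns were higher in 60 and lower in 76 of 201 cases (29.9% and 37.8%). At 50 nM 163 of 238 changed (68.5%, beside 54.6%). In MDA-MB-231 at 200 nM it was 3 of 15 (20%, beside 25.2%), and at 50 nM the 1 host, KIAA1217, was higher (beside 23.3%). In MDA-MB-231 at 200 nM the SMC4 gene was lower and its intron more retained. In U87MG at 200 nM the SNHG17 gene was higher and the SNHG12 gene lower, and both held introns that moved in opposite directions.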

How the data were processed

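RNA was measured in 46 paired-end libraries of 151-base reads. Per the labels, libraries were made from mRNA and were stranded. The authors trimmed, aligned and counted reads with Trimmomatic, STAR and StringTie on GRCh38, per the submitters' processing notes, and deposited raw counts per gene. The deposited PSI values are fractions from rMATS, per the names of the deposited tables, with no counts behind them; its version is not given in the sources used here.

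The members, gene lists and tests were chosen with earlier results of these data known. In each comparison limma 3.58.1 was fitted with R 4.3.3 to the PSI of events of every type that no library lacked and that spanned at least 0.05 over the libraries. P-values were adjusted by the Benjamini-Hochberg method over all events, and a call needed an adjusted p below 0.05 and a difference of at least 0.1. An interaction term tested the difference between the lines. Gene counts were tested with edgeR 4.0.16 (quasi-likelihood, TMM scaling, adjusted p below 0.05), and DESeq2 1.42.0 was an alternative. Both scripts were tested on simulated data, in which the PSI test missed most changes and nearly all of the smaller ones. Few events were changed in that simulation, and the share missed depends on how many change. That share therefore does not carry over to the U87MG comparisons with many calls. An intron without a call is still not shown to be unchanged. Replicates share only a number, and nothing in the labels says that they were separate cultures, so p-values measure the spread between libraries, which may be technical.

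The text names, for each comparison, the largest called rises and falls whose libraries do not overlap, introns called the same way in 3 or more comparisons, called introns of the gene lists and the largest line differences. Other introns were named after their values were seen. An intron that the rule chose is not reported here, though counts include it. Sequences and frames were read from GENCODE release 29 transcripts with Python 3.11.15. Pooled copies of the 200 nM tables were not used.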

Additional observations from a re-analysis of the deposited data

Results flagged for a closer look

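In 5 introns 1 xenograft tumour stood apart from the others of its group by Dixon's criterion. Chance meets it in about 1 of 20 groups of normally distributed values. The number of groups looked at is not given here, so the 5 are not shown to exceed that rate. Among treated tumours these were the FBXO7 intron at 0.835, where the others were at 1, the SMC4 intron at 0.971, where the others were at 1, and the TRA2A intron at 0.767, where the others were at 0.891 to 0.934. Among control tumours they were the TRMU intron at 0.818, where the others were at 0.623 to 0.642, and the USP21 intron at 0.38, where the others were at 0.444 to 0.468. For FBXO7 and SMC4 the other treated tumours were tied at 1, so any lower value meets the criterion. The rate of about 1 in 20 does not hold there.

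The change with ASO-1570 differed between the lines by an interaction test (limma) for 186 introns at 200 nM and 99 at 50 nM. Given as the change in MDA-MB-231 minus that in U87MG, the largest differences at 200 nM were -0.8453 for CD22, 0.825 for CNNM3, 0.7373 for HLA-DOB, 0.6403 for SCART1 and 0.6397 for OBSL1. CD22, HLA-DOB and SCART1 were under 1 CPM in U87MG. At 50 nM they were -0.9373 for STX18-AS1, 0.9163 for SYNE4, 0.6803 for CHD8, 0.5767 for CIAO3 and 0.5703 for EXOSC10. STX18-AS1 stood at 1 in all treated U87MG libraries, against 0.126, 0 and 0.42 in control U87MG, and SYNE4 was under 1 CPM in both lines.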

How the results depend on the processing

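In MDA-MB-231 at 200 nM the 15 calls became 9 with no range filter, 42 on the logit scale, 79 in a fit of all 4 groups and 0 with the replicate block, and lay between 3 and 41 as each library was left out. At 50 nM the 1 call became 0 with no range filter, 8 on the logit scale, 2 with missing values allowed, 27 in a fit of all 4 groups and 0 with the replicate block, with 0 to 6 as each library was left out. In U87MG the 443 calls at 200 nM became 283 and the 287 at 50 nM became 96 with the replicate block. Leaving out each library gave 313 to 433 and 117 to 349, and the other alternatives moved these counts by less than 1.5 times. No comparison had every correlation of same-numbered libraries over 0.1 (PSI -0.00871 to 0.0267 and gene levels -0.421 to 0.233 in the cell lines, -0.174 to 0.137 and -0.309 to 0.834 in the xenograft), so the numbers were not taken to pair the libraries. In U87MG with the siRNA each library correlated best with its own number in both measures.

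With the siRNA a fit of all 4 groups called 8 introns in MDA-MB-231 and 5 in U87MG, U87MG gave 1 on the logit scale and 1 with missing values allowed, and each line gave 0 to 1 as each library was left out. The xenograft gave 1 with missing values allowed and 0 to 1 as each tumour was left out. Line differences at 200 nM became 85 with the replicate block and 136 to 225 as libraries were left out. At 50 nM they became 0 with the block and 54 to 188, and with the siRNA 2 on the logit scale and 0 to 1. Changed host genes numbered 2 to 5 in MDA-MB-231 at 200 nM as each library was left out, and 211 to 226 and 145 to 165 in U87MG at 200 and 50 nM. Of 102 calls of introns chosen by the naming rule none changed sign. Calls were lost for 43 when a library was left out, 41 with the block, 14 with no range filter, 8 on the logit scale, 4 in a fit of all 4 groups and 1 with missing values allowed. Introns starting with ATATCC or GTATCC gave 15 to 17 calls at 200 nM and 9 to 16 at 50 nM in U87MG, and 0 to 8 and 0 to 1 in MDA-MB-231, as each library was left out, an alternative chosen after seeing the data, as was the limit of 1 CPM on host genes. Host genes were not retested where no intron was called, and no library was left out for the 1 host in MDA-MB-231 at 50 nM. The causes were not tested. The depth of each PSI is unknown, so values of weakly expressed hosts carry an error that cannot be given.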
